A study of Homo sapiens with 12 samples.

Results

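A group of 8 neighbouring genes of the long arm of human chromosome 1 (1q23) is described here, among the 26641 genes of the table: LY9, CD244, ITLN1, ITLN2, F11R, TSTD1, USF1 and ARHGAP30, in chromosomal order. They were taken by name and had been selected on the measured difference between recruitment and control libraries within each fusion, in these same data, so their values in that comparison are given as a description without a test. RNA was sequenced from NCCIT, a human embryonal carcinoma cell line, carrying catalytically dead S. pyogenes Cas9 (dCas9) fused to the activation domain VPR (CRISPRa) or to the repression domain KRAB (CRISPRi). Guides came from CARGO arrays, plasmids that express 12 guide RNAs together, and both the fusion and the array were inserted with PiggyBac transposons.

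Each fusion was combined with 3 arrays, which makes 6 lines. The LTR5HS Sp array carries guides to LTR5HS, the long terminal repeat of the youngest HERVK endogenous retroviruses, and its libraries are called recruitment. The LTR5HS Sa array has the same target but a guide scaffold that S. pyogenes dCas9 does not use, and the nontarget Sp array has guides without a target. Both are controls. Every line, controls included, carried a fusion and was given doxycycline for 4 days to induce it. Each line gave 2 libraries, which the labels describe as independent biological replicates, so each fusion has 2 recruitment and 4 control libraries. The array acts at many LTR5HS at once, so no library isolates the insertions of this region from those elsewhere.

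F11R encodes junctional adhesion molecule A, a membrane protein of epithelial tight junctions. ITLN1 and ITLN2 encode intelectins, secreted lectins that bind sugars on microbial surfaces and are known from goblet and Paneth cells of the gut. USF1 is a helix-loop-helix transcription factor that binds E-boxes. TSTD1 encodes a small protein with a rhodanese (sulfurtransferase) domain, and ARHGAP30 a GTPase-activating protein. CD244 (2B4) and LY9 (SLAMF3) are receptors of the SLAM family, known from natural killer cells and lymphocytes, and CD48, whose gene lies nearby, is the ligand of CD244.

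The libraries held between 13601701 and 69797411 counts with a median of 18256928, and the deepest was dCas9-KRAB nontarget Sp replicate 2. A count of 3 in a library, used as a floor for detection, corresponded to 0.0455 to 0.233 CPM (counts scaled to library size, with TMM normalization), and floors and intervals cover counting error only. All 12 markers fixed for pluripotent carcinoma cells were above 1 CPM in every library, but their levels varied widely. NANOG, which had the lowest value, ranged from 1.05 to 185 CPM over the libraries. The summed level of the 12 markers was 1237 to 1860 CPM in the dCas9-VPR control libraries and 5425 to 6785 CPM in the dCas9-KRAB control libraries. Of 20 leukocyte markers, MS4A1 was at 0 in every library, PTPRC never exceeded 0.0557 CPM, and 14 stayed under 1 CPM throughout. Bulk libraries do not tell fewer expressing cells apart from less RNA per cell.

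The guide sequences show where the array has exact matches in this region. Each guide has a 16 nt spacer, and a match was counted where the whole spacer stood before an NGG motif (PAM) in hg38. Matches less than 1000 bp apart were joined into one cluster. The genome held 2938 matches in 950 clusters, and the stretch from 500 kb before LY9 to 500 kb after ARHGAP30 held 29 matches in 10 clusters, 6 of them with matches of at least 2 guides. Such matches are a description of the sequence and not a measurement of binding. Sites with mismatches were not searched, and the clusters were not assigned to a class of repeat.

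A cluster of 4 guides lay in the first intron of F11R (hg38 chr1:161017161-161017655), 3.5 kb downstream of the F11R transcription start to its nearest edge. The sites are shown 5′ to 3′ on their own strand, with the PAM in capitals, because they are the sequences within the gene that carries the largest change in absolute level.
LTR5HS-7, minus strand, chr1:161017161-161017179: aaccttggacaataccTGG
LTR5HS-8, plus strand, chr1:161017254-161017272: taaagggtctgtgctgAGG
LTR5HS-9, minus strand, chr1:161017343-161017361: gacattccattgcccaGGG
LTR5HS-1, plus strand, chr1:161017637-161017655: tactaagggaactcagAGG

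ITLN2 held a cluster of 3 guides in intron 6 (chr1:160948915-160949465) and a lone match in intron 7, its last. The nearest edge was 5.34 kb downstream of the ITLN2 start. These 4 sites are shown because ITLN2 was the only one of the 8 genes with a more than 10-fold difference with both fusions.
LTR5HS-10, plus strand, chr1:160948915-160948933: atagagaaagaaaagtGGG
LTR5HS-5, minus strand, chr1:160949210-160949228: aggagaaaaccaccttAGG
LTR5HS-7, plus strand, chr1:160949447-160949465: aaccttggacaataccTGG
LTR5HS-8, minus strand, chr1:160947459-160947477: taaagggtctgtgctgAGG

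The sites of LTR5HS-7 and LTR5HS-8 stood in both genes, in opposite orientation. LTR5HS-8 had 726 exact matches in the genome and LTR5HS-5 had 21. The other 6 genes had no match within their annotated bodies. The nearest match was 21.3 kb from the start of TSTD1, 28.3 kb from that of USF1 and 52.2 kb from that of ARHGAP30, in each case the F11R cluster. ITLN1 (28.4 kb) and CD244 (50.7 kb) were nearest to a lone intergenic match of LTR5HS-8 at chr1:160913574-160913592, upstream of both, and LY9 was 96.3 kb from a cluster in the first intron of CD48. All 8 starts were thus within 100 kb of a match, compared with 10.4% of tested genes with a known start. A match lay in the gene body of 2 of the 8, compared with 1.6%. The genes had been selected on the recruitment difference and several share a nearest cluster, so nothing is read from these shares.

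F11R, on the minus strand (chr1:160995211-161021343), was the most abundant of the 8 genes in the controls. Recruitment of dCas9-VPR gave 353 and 431 CPM, against 185 and 187 CPM with the LTR5HS Sa array and 282 and 310 CPM with the nontarget Sp array. Recruitment of dCas9-KRAB gave 32.0 and 20.9 CPM, against 346 and 421 CPM with LTR5HS Sa and 446 and 441 CPM with nontarget Sp. Both recruitment libraries stood above all 4 controls with dCas9-VPR and below all 4 with dCas9-KRAB.

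With dCas9-VPR, F11R had a mean of 391.7 ± 55.1 CPM (SD, n = 2) under recruitment, against 241 ± 64.6 CPM (SD, n = 4) in the 4 controls, a log2 fold change of 0.71 (SE 0.22). With dCas9-KRAB it was 26.5 ± 7.91 CPM (SD, n = 2) and 414 ± 46.2 CPM (SD, n = 4), a log2 fold change of -3.96 (SE 0.21), or 15.6-fold lower. The upward difference was small beside the downward one, and it depended on the control: it was 1.07 on the log2 scale against LTR5HS Sa alone and 0.41 against nontarget Sp alone. The level reached with dCas9-VPR recruitment was also within the range of the dCas9-KRAB controls. Among all genes tested, the F11R difference ranked 35 of 15520 from the lowest with dCas9-KRAB and 2440 of 16271 from the highest with dCas9-VPR.

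ITLN2, also on the minus strand (chr1:160945025-160954809), was low in every control and moved far in both directions. Recruitment of dCas9-VPR gave 17.4 and 19.9 CPM, from 312 and 373 counts, and its 4 controls lay between 0.491 and 0.946 CPM. Recruitment of dCas9-KRAB left 2 and 1 counts, or 0.112 and 0.0677 CPM, and its 4 controls lay between 1.68 and 1.99 CPM. The groups did not overlap with either fusion, and both dCas9-KRAB recruitment libraries were under the floor of 3 counts.

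Mean ITLN2 was 18.7 ± 1.81 CPM (SD, n = 2) with dCas9-VPR recruitment against 0.714 ± 0.186 CPM (SD, n = 4), a log2 fold change of 4.71 (SE 0.24). The dCas9-KRAB difference of -4.25 (SE 0.45) rests on 3 recruitment counts in all, and the ratio of summed counts was 19.4-fold lower with a 95% counting interval from 6.54 to 94.7. Its differences ranked 136 of 16271 from the highest with dCas9-VPR and 29 of 15520 from the lowest with dCas9-KRAB. LOC101928372, a noncoding RNA gene of the opposite strand, overlaps ITLN2, and whether reads were assigned by strand is not given in the sources used here. Reads of that gene and of ITLN2 can therefore not be told apart where they overlap.

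ITLN1, the other intelectin (chr1:160876540-160885180), was close to the floor without recruitment. With dCas9-VPR it had 66 and 48 counts in the recruitment libraries and 3, 1, 1 and 2 counts in the controls. The groups were apart, and the ratio of normalized counts was 36.0 with a counting interval from 16.9 to 91.4. With dCas9-KRAB it had 4 and 0 counts against 7, 1, 12 and 14, and it was too low to be tested. Those groups overlapped, and the ratio of 2.30-fold lower had an interval from 0.820 to 8.92, so a difference was not detectable at this depth.

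The intelectins share sequence. The canonical transcripts of ITLN1 (1192 nt) and ITLN2 (1161 nt) were identical at 87.3% of 942 aligned positions, and their longest run without a difference was 110 nt, shorter than the 150 nt reads. The level per length with dCas9-VPR recruitment was 16.2 ± 1.58 CPM per kb for ITLN2 and 2.64 ± 0.663 CPM per kb for ITLN1 (SD, n = 2). ITLN2 was the higher in both libraries.

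Goblet and intestinal markers were checked beside the intelectins. Their summed level was 21.9 to 23.8 CPM with dCas9-VPR recruitment and 5.75 to 6.19 CPM in its controls, and 6.33 to 6.70 CPM with dCas9-KRAB recruitment against 7.52 to 9.93 CPM. Of the 10 genes of this list, 6 stayed under 1 CPM in every library. MUC2 never exceeded 0.158 CPM and TFF3 never exceeded 0.155 CPM, while CDX2, an intestinal transcription factor, reached 12.02 CPM. With dCas9-VPR, mean CDX2 was 11.4 CPM under recruitment and 0.860 CPM in the controls. Mean FCGBP was 8.48 and 2.21 CPM, while VIL1 went the other way, at 1.14 and 1.98 CPM. The part of these genes in the intelectin values was not tested.

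The SLAM receptors were nearly silent in the controls. CD244 (chr1:160830160-160862887) had 54 and 46 counts with dCas9-VPR recruitment and 2, 1, 2 and 1 counts in the controls, a ratio of 36.8 with a counting interval from 16.3 to 102.6. With dCas9-KRAB it had 0 counts in both recruitment libraries and in both LTR5HS Sa libraries, and 2 and 7 counts in the nontarget Sp libraries, so no fold is given. The separation with dCas9-VPR was complete, and CD244 ranked 108 of 16271 from the highest. LY9 (chr1:160796074-160828261) had 2 and 1 counts with dCas9-VPR recruitment and 0 in its 4 controls, which is at or under the floor throughout, and with dCas9-KRAB it had 3 counts over 2 control libraries and 0 elsewhere.

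USF1 (chr1:161039251-161045977) showed a modest difference in each direction. It stood at 84.3 and 86.9 CPM with dCas9-VPR recruitment and between 47.2 and 56.8 CPM in the controls, and at 42.4 and 54.6 CPM with dCas9-KRAB recruitment and between 60.5 and 66.3 CPM in the controls. The groups did not overlap. The log2 fold changes were 0.69 (SE 0.11) and -0.37 (SE 0.13).

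ARHGAP30 (chr1:161046946-161069970) was at 1.95 and 1.98 CPM with dCas9-VPR recruitment, above controls of 0.546 to 1.61 CPM, and at 0.336 and 0.813 CPM with dCas9-KRAB recruitment, below controls of 0.854 to 1.404 CPM. The gaps were narrow for counts this low, and the log2 fold changes were 0.72 (SE 0.39) and -0.93 (SE 0.43). Without dCas9-KRAB LTR5HS Sp replicate 1 the second was -0.40, and without replicate 2 of that line it was -1.66.

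TSTD1 (chr1:161037631-161038977) is the gene nearest upstream of F11R and is joined to it in an annotated readthrough gene. It had 1.503 and 1.283 CPM with dCas9-VPR recruitment against 0.788 to 1.59 CPM, and 0.280 and 0.609 CPM with dCas9-KRAB recruitment against 0.233 to 0.626 CPM. The groups overlapped with both fusions. The log2 fold changes were 0.41 (SE 0.36) and -0.13 (SE 0.52), and the second was 0.35 without dCas9-KRAB LTR5HS Sp replicate 1 and -0.76 without replicate 2 of that line. It rests on 5 and 9 counts in the recruitment libraries, and its direction could not be settled at this depth. How the authors' counting treated reads that F11R, TSTD1 and the readthrough gene share is not given in the sources used here, and such reads cannot be told apart in these counts.

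**Figure D1:**
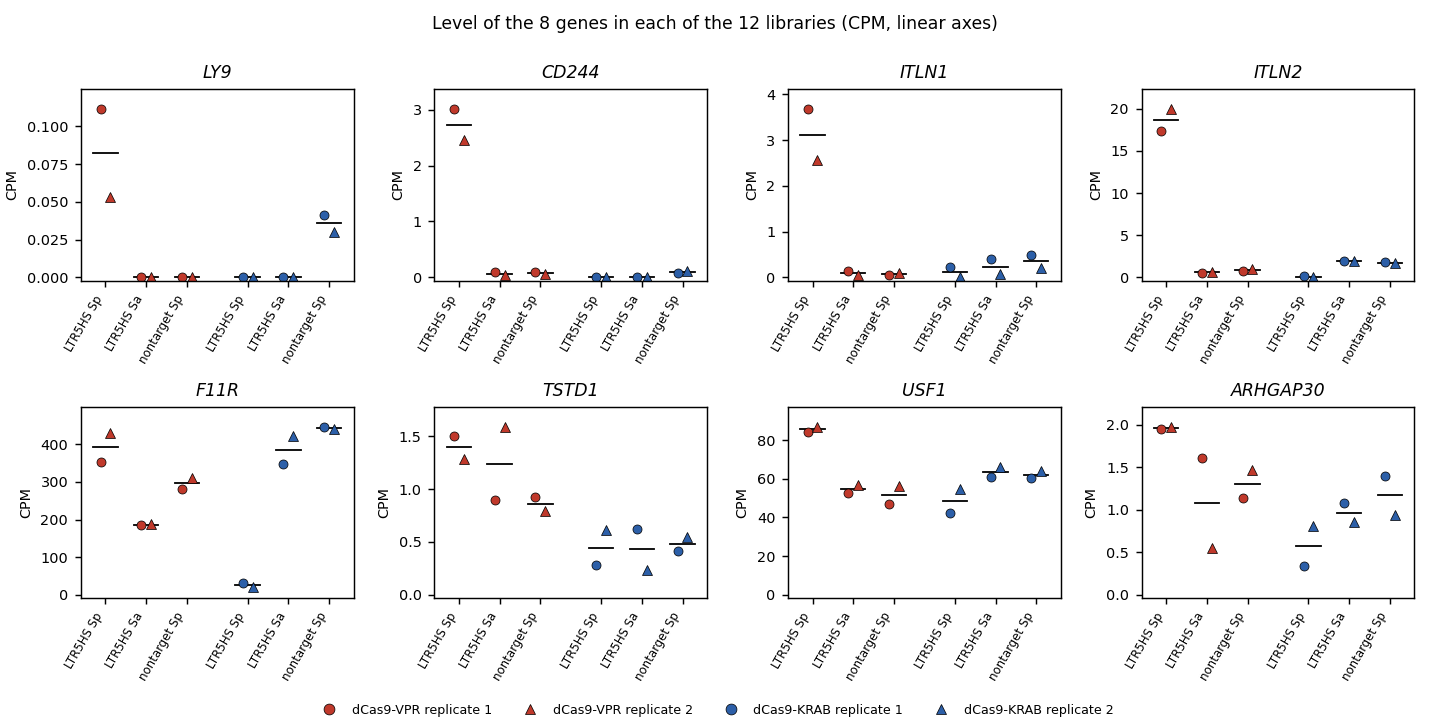
Level of each gene in CPM (vertical, linear axis) by array for dCas9-VPR (red) and dCas9-KRAB (blue), with replicate 1 as a circle, replicate 2 as a triangle and the mean of both as a line. F11R lies at 346 to 446 CPM in the dCas9-KRAB controls and at 32.0 and 20.9 CPM with recruitment, whereas ITLN2, ITLN1 and CD244 stay under 2 CPM except with dCas9-VPR recruitment.

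In all, 7 of the 8 genes passed the filter on low counts with dCas9-VPR and 5 with dCas9-KRAB. Past an adjusted p of 0.05 in edgeR were 5 with dCas9-VPR, all higher (F11R, ITLN1, ITLN2, USF1 and CD244), where 15.7% of all tested genes were called higher and 27.95% in either direction. With dCas9-KRAB 2 were past it, both lower (F11R and ITLN2), where 1.94% of all tested genes were called lower. Complete separation was seen for 6 tested genes above the controls with dCas9-VPR (background 25.5%) and for 4 below them with dCas9-KRAB (background 12.04%). F11R was not among the genes called with dCas9-VPR under the replicate block, with nontarget Sp alone as control, or without either LTR5HS Sp or either LTR5HS Sa library of that fusion. Since these contrasts chose the genes, nothing is read from the counts.

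The levels without recruitment give an order of the genes per length. In the dCas9-KRAB controls F11R had 85.6 ± 9.57 CPM per kb and USF1 34.3 ± 1.45, followed by ITLN2 with 1.62 ± 0.119 and TSTD1 with 0.676 ± 0.256 (SD, n = 4). ITLN1 (0.250 ± 0.158) and ARHGAP30 (0.242 ± 0.0546) did not differ beyond their spread, and CD244 and LY9 were lowest. The dCas9-VPR controls had F11R at 49.9 ± 13.4, USF1 at 29.0 ± 2.39, TSTD1 at 1.56 ± 0.542 and ITLN2 at 0.621 ± 0.162 CPM per kb (SD, n = 4), so that ITLN2 and TSTD1 changed places.

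The rest of the genome gives the frame for genes with a match of their own. Leaving out all genes of the region, 222 genes with a match in the body were tested with dCas9-KRAB, and 33.3% of them were called lower. The share was 12.1% of 1319 genes with a start within 100 kb of a match and none in the body, and 0.230% of 7383 genes more than 1 Mb away. With dCas9-VPR, 57.3%, 43.3% and 11.1% of these classes were called higher. F11R and ITLN2 belong to the first class and the other 6 genes to the second, and the shares were not tested against each other.

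The control arrays were compared next, to ask whether the genes differed between the control lines, without recruitment. Array and line cannot be told apart in this comparison. F11R was lower with LTR5HS Sa than with nontarget Sp in the dCas9-VPR lines, with a log2 fold change of -0.65 (SE 0.13, edgeR adjusted p = 0.0262), and both LTR5HS Sa libraries were below both nontarget Sp libraries. It was the only one of the 7 tested genes past the threshold, where 4.51% of all tested genes were. The call was lost without dCas9-VPR LTR5HS Sa replicate 1 (-0.64), without LTR5HS Sa replicate 2 (-0.67) and without nontarget Sp replicate 2 (-0.57). Each of these fits leaves 1 library in an arm. The call held in DESeq2 (Wald test adjusted p = 0.000273), and in edgeR without a filter (adjusted p = 0.00872) and with the replicate block (adjusted p = 0.000135). Over all alternatives the log2 fold change lay between -0.73 and -0.57. The other 6 genes had adjusted p-values from 0.493 to 0.969 in the edgeR fit that gave 0.0262.

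The dCas9-KRAB lines showed no such call among 5 tested genes, where 0.567% of all tested genes were called. F11R was at -0.20 (SE 0.18, edgeR adjusted p = 0.712), and 0 of the 5 had an unadjusted p under 0.05 or a call in DESeq2. Whether the array difference of F11R was unequal between the fusions was tested as an interaction, which gave -0.42 (SE 0.17, edgeR adjusted p = 0.298). The interaction called 0 of 5 genes in edgeR and 0 in DESeq2, with 1 (F11R) at an unadjusted p under 0.05, where edgeR called 1.79% of all tested genes.

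The fusions were compared over their control libraries, which also come from different lines. F11R was lower in the dCas9-VPR controls than in the dCas9-KRAB controls, by -0.80 on the log2 scale (SE 0.11, edgeR adjusted p = 0.000105), and all 4 dCas9-VPR control libraries lay below all 4 dCas9-KRAB ones. ITLN2 was lower by -1.36 (SE 0.24, edgeR adjusted p = 0.000767), again without overlap. TSTD1 was higher by 1.08 (SE 0.34, edgeR adjusted p = 0.0183), and its libraries did not overlap either.

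USF1 was past the threshold with -0.23 (SE 0.09, edgeR adjusted p = 0.0465), a call that several alternatives ended, while ARHGAP30 was not, with 0.19 (SE 0.33, adjusted p = 0.649). The TSTD1 call was lost without dCas9-VPR LTR5HS Sa replicate 2 (edgeR adjusted p = 0.0563). These 4 of 5 genes stand against 57.7% of all tested genes. All 12 pluripotent carcinoma markers were also called lower in the dCas9-VPR controls, with a median log2 fold change of -2.27 against -0.013 over all genes, and their part in the differences of the 4 genes was not tested.

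**Figure D2:**
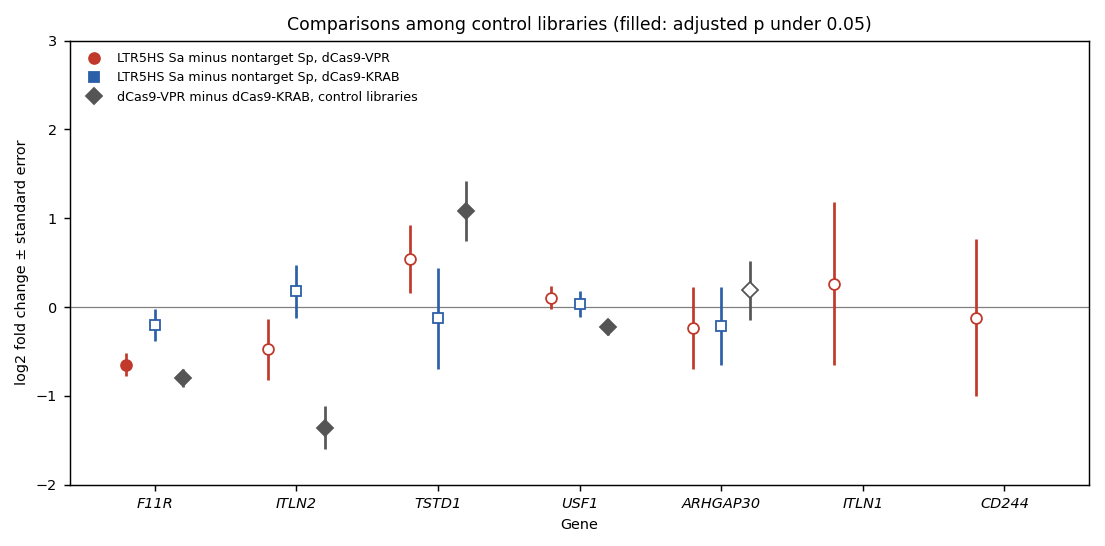
Log2 fold change with its standard error (vertical) of each gene between the control arrays within a fusion, and between the fusions over their control libraries. Filled symbols have an edgeR adjusted p under 0.05. F11R is lower with LTR5HS Sa than with nontarget Sp in dCas9-VPR (-0.65), and F11R (-0.80) and ITLN2 (-1.36) are lower in the dCas9-VPR controls than in the dCas9-KRAB controls.

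The region holds 33 further genes of the table, taken by position alone. Whether their changes belong to the same response as those of the 8 genes was not tested. With dCas9-VPR 24 were tested and 7 were called higher, 0 lower, compared with 15.7% and 12.3% of all tested genes. With dCas9-KRAB 21 were tested and 2 were called lower, 0 higher, compared with 1.94% and 0.831%. No neighbour was lower with dCas9-VPR at an unadjusted p under 0.05 either, and DESeq2 made the same number of calls, 7 and 2. The median log2 fold changes of the neighbours were 0.16 with dCas9-VPR and -0.0034 with dCas9-KRAB, against -0.019 and 0.00060 over all genes.

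SDHC, which encodes a membrane subunit of mitochondrial succinate dehydrogenase, carries a cluster of 4 guides in its first intron, 1.48 kb from its start. It had 24.3 and 26.7 CPM with dCas9-KRAB recruitment and 128, 142, 128 and 136 CPM in the controls, a log2 fold change of -2.39 (SE 0.12, edgeR adjusted p = 1.2e-05). With dCas9-VPR it did not pass the test, at 0.18 (SE 0.13, edgeR adjusted p = 0.332). SDHC ranked 132 of 15520 from the lowest with dCas9-KRAB and 5608 of 16271 from the highest with dCas9-VPR.

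CFAP126, a gene of motile cilia next to SDHC, fell by 2.60 on the log2 scale with dCas9-KRAB (SE 0.18, edgeR adjusted p = 5.0e-05). It had 2.86 and 2.51 CPM against 15.8 to 16.8 CPM in the controls. CFAP126 had no match in its body, and the nearest one, a lone match of LTR5HS-6, was 45.5 kb away. The cluster of 4 guides in SDHC lies on the other side of the gene, at chr1:161315858-161316322, and is not much farther from its start. The CFAP126 body spans chr1:161364733-161367876 on the minus strand. Which match, if any, goes with the fall was not tested. With dCas9-VPR the value of CFAP126 was -0.18 (SE 0.21, edgeR adjusted p = 0.562).

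CD48 has a cluster of 4 guides at 2 places in its first intron. It had 18 and 18 counts with dCas9-VPR recruitment and 0, 0, 0 and 2 in the controls, a ratio of 39.7 with a counting interval from 10.2 to 341, and it was called higher (edgeR adjusted p = 0.00211). With dCas9-KRAB it was at 0 in all 6 libraries. CD48 and its receptor gene CD244 were thus both above the floor in each dCas9-VPR recruitment library.

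SLAMF7, another SLAM receptor, rose by 2.50 (SE 0.47, edgeR adjusted p = 0.00527), from 14 counts over the 4 controls to 37 over the 2 recruitment libraries. LOC101928372, the noncoding gene opposite ITLN2, had 23 and 22 counts against 1, 0, 0 and 1 and was called higher (edgeR adjusted p = 0.000444). SLAMF1, 5.42 kb from a cluster of 6 guides, never exceeded 2 counts in any library, and CD84 never exceeded 1.

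VANGL2, a planar cell polarity gene 252 kb from the nearest match, rose by 0.70 with dCas9-VPR (SE 0.12, edgeR adjusted p = 0.00362). DEDD, a death effector domain gene, was called higher by 0.40 (edgeR adjusted p = 0.0487), and ADAMTS4, a secreted metalloprotease gene, by 0.47 (SE 0.12, edgeR adjusted p = 0.0225). CD48 and LOC101928372 were called in all 13 alternatives. DEDD was not called with DESeq2's size factors in edgeR, with no filter, with nontarget Sp alone as control, or when any dCas9-VPR library other than nontarget Sp replicate 2 was left out. ADAMTS4 was not called with nontarget Sp alone or without LTR5HS Sp replicate 1 or 2 or LTR5HS Sa replicate 1, VANGL2 not without LTR5HS Sp replicate 2, and SLAMF7 not without LTR5HS Sp replicate 1. Without dCas9-VPR LTR5HS Sp replicate 1 or 2 the number of neighbours called was 3. The dCas9-KRAB calls of SDHC and CFAP126 held in every alternative run.

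**Figure D3:**
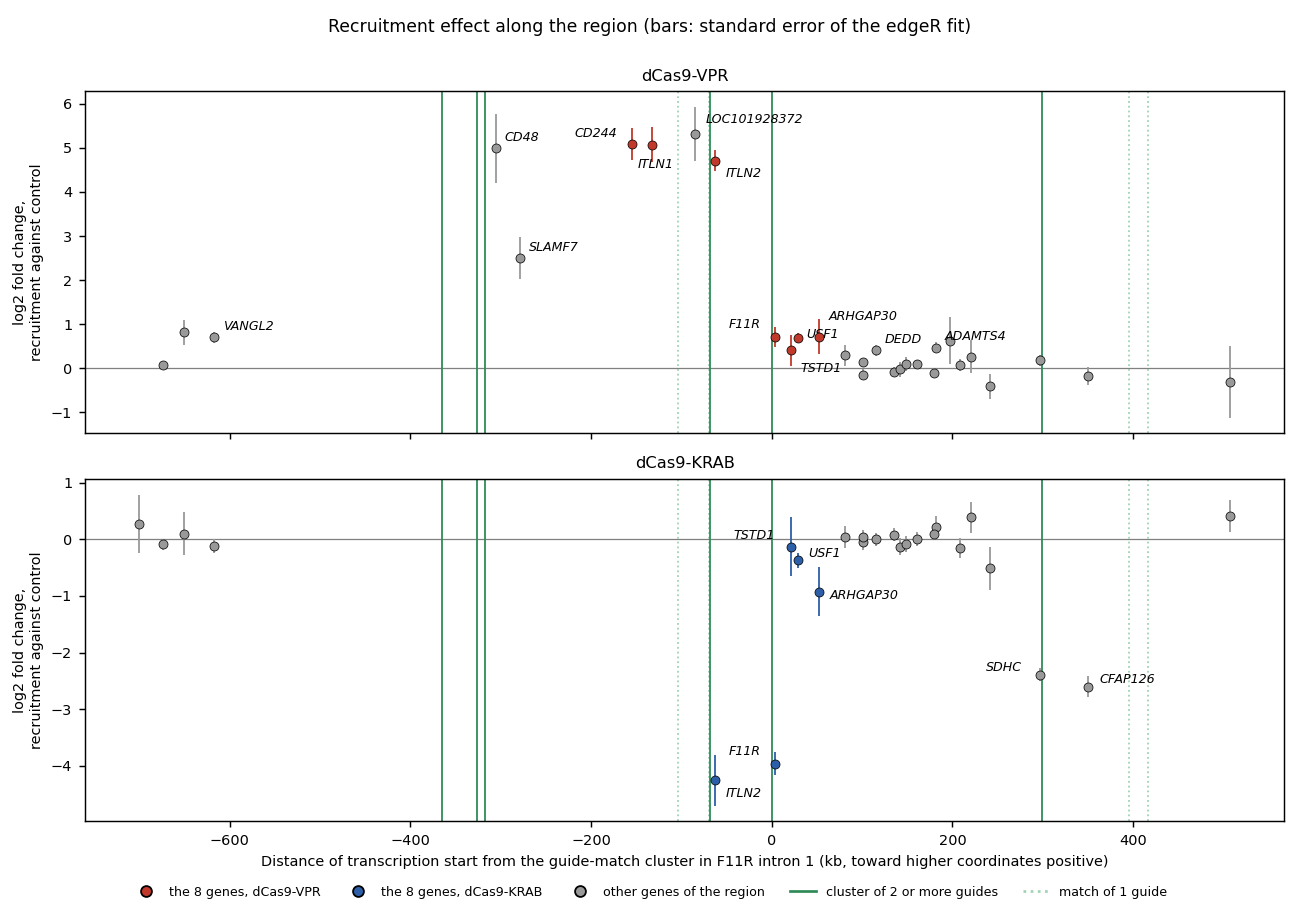
Log2 fold change of recruitment against control with its standard error (vertical) by the distance of each start from the F11R guide cluster in kb (horizontal), for tested genes, 1 neighbour left out. Coloured points are the 8 genes, grey points the others, and vertical lines the guide matches. In the dCas9-VPR panel the values near 5 lie to the left of F11R, and in the dCas9-KRAB panel F11R, ITLN2, SDHC and CFAP126 stand below -2 while the genes between F11R and SDHC stay within 1 of 0.

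Genes related by function were taken as lists. Of 28 tight junction genes tested beside F11R, 8 were called with dCas9-VPR, 4 higher and 4 lower, with a median of -0.13, and 0 with dCas9-KRAB, with a median of 0.07. In the latter 2 had an unadjusted p under 0.05 and DESeq2 called 0. JAM3, a paralogue of F11R, fell by 0.57 with dCas9-VPR (edgeR adjusted p = 0.00945) and was at 0.06 with dCas9-KRAB (adjusted p = 0.825). CLDN4, a claudin, fell by 2.19 with dCas9-VPR (edgeR adjusted p = 0.00157), and PARD6A, a polarity gene, rose by 1.07 (edgeR adjusted p = 0.00221). MLLT4 (afadin), the most abundant of the list, was at -0.15 and -0.18 and passed with neither fusion.

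Of 14 E-box factors tested beside USF1, 8 were called with dCas9-VPR, 6 higher and 2 lower, with a median of 0.23, and 0 with dCas9-KRAB, with a median of 0.19, where 2 had an unadjusted p under 0.05 and DESeq2 called 1. BHLHE41 rose by 2.11 (edgeR adjusted p = 0.00735) and TFE3 by 0.60 (edgeR adjusted p = 0.00780) with dCas9-VPR, while MLXIP, the most abundant, was at 0.12 and did not pass. Only CD48 and SLAMF7 of 9 further SLAM family and adaptor genes could be tested, and only with dCas9-VPR, and both are described above. These counts stand beside 27.95% and 2.77% of all tested genes called in either direction.

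The marker lists moved in part. Of the goblet and intestinal list, 3 of 4 tested genes rose with dCas9-VPR, beside 15.7% of all tested genes, with CDX2 at 3.72 (edgeR adjusted p = 0.000252) and FCGBP at 1.93 (edgeR adjusted p = 0.00424), and FCGBP alone fell with dCas9-KRAB, by 1.82 (edgeR adjusted p = 0.00665). VIL1 passed with neither. Of the leukocyte list, 3 of 8 tested genes were called with dCas9-VPR, beside 27.95% of all tested genes, with CD79A rising by 2.74 (edgeR adjusted p = 0.00153), CD4 by 0.56 (edgeR adjusted p = 0.0127) and CORO1A falling by 1.57 (edgeR adjusted p = 0.00896), and 0 of 5 with dCas9-KRAB, where 1 had an unadjusted p under 0.05 and DESeq2 called 0.

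The summed level of the leukocyte list was 50.6 to 55.2 CPM with dCas9-VPR recruitment and 38.1 to 42.7 CPM in the controls, and its part in the CD244 values was not tested. Of the 12 pluripotent carcinoma markers, 5 were called with dCas9-VPR, 1 higher and 4 lower, beside 15.7% and 12.3% of all tested genes, and 0 with dCas9-KRAB, where 6 had an unadjusted p under 0.05 and DESeq2 called 1. L1TD1 rose by 1.62 (edgeR adjusted p = 0.00274), and SOX2 fell by 1.24 (edgeR adjusted p = 0.00735) and DNMT3B by 0.62 (edgeR adjusted p = 0.0116) with dCas9-VPR. LIN28A passed with neither.

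Across the 12 libraries, the genes outside the 8 whose log2 levels followed F11R most closely were SDHC (Pearson r 0.982), UBE2Q2 (0.971) and RPARP-AS1 (0.967), among 15140 genes. For ITLN2 they were SMIM24 (0.995), ZNF577 (0.992) and NFKB2 (0.990). The nearest match was 27.6 kb from the start of UBE2Q2 and 4.33 kb from that of RPARP-AS1. For the genes like ITLN2 it was 3093 kb from the start of SMIM24, 18.1 kb from that of ZNF577 and 3.45 kb from that of NFKB2. The points share the fusion and array groups, so these are descriptions of like patterns.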

How the data were processed

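RNA from 12 NCCIT libraries was analysed. The labels describe polyadenylated RNA read as paired 150 nt ends, and the submitters' processing notes name CASAVA 1.8, cutadapt 1.8.1, HISAT2 2.1.0 on hg38 and featureCounts 1.4.6-p2. The authors deposited raw read counts per gene for 26641 genes without normalization, beside a column of gene lengths in bp, the other deposited values. The annotation and the strand setting are not given in the sources used here, and repeat transcripts were not analysed here.

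The quasi-likelihood test of edgeR 4.0.16 was run on the counts in R 4.3.3 (filterByExpr, TMM, Benjamini-Hochberg adjustment over all tested genes, threshold 0.05), after checks on simulated data. Standard errors are the log2 fold change divided by the square root of F. Recruitment was compared with both control arrays pooled, within each fusion, and the control arrays and fusions were compared among control libraries. CPM uses TMM sizes over all libraries, and CPM per kb the deposited length. Intervals of count ratios are exact at 95%. Guides were matched to hg38. Genes were placed with GENCODE 44 or, where it gave no match, by a RefSeq position. This placed 25346 names (95.1%), 1213 of them by an older symbol. Likeness of pattern used log2 of CPM plus 0.5. Alternatives were DESeq2 1.42.0 with its Wald test, its size factors in edgeR, no filter, the replicate block, either control array by itself, a joint fit of both fusions, and leaving out each library. A fit that leaves 1 library in an arm assumes that it varies like the others.

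The 8 genes, the lists and the tests were chosen with earlier results of these data known. Named beside the 8 genes were the 8 neighbours with the smallest adjusted p, the 3 genes most like F11R and ITLN2, and the 2 with the smallest adjusted p and the 2 most abundant of each list. DEDD, SLAMF1, CD84, MUC2, TFF3, MS4A1, PTPRC and NANOG were named after their values were seen. Items withheld from this text, among them 1 of those neighbours and 1 listed gene, are not reported here.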

Additional observations from a re-analysis of the deposited data

Results flagged for a closer look

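F11R, ITLN2, USF1 and ARHGAP30 were flagged because every recruitment library was above its controls with dCas9-VPR and below them with dCas9-KRAB. Of all tested genes, 25.5% stood above all controls with dCas9-VPR and 12.04% below all controls with dCas9-KRAB. The share that did both was not computed, and ARHGAP30 was called with neither fusion. The gap between the recruitment log2 fold changes of the fusions (dCas9-VPR minus dCas9-KRAB) was 4.67 for F11R, 8.96 for ITLN2, 1.06 for USF1 and 1.65 for ARHGAP30. The difference between the fusions was not tested, since these contrasts chose the genes. F11R and ITLN2 have a guide match in the gene body, and USF1 and ARHGAP30 do not.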

How the results depend on the processing

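Where the 8 genes had been called, their recruitment fold changes kept their direction under every alternative. Over all tested genes of the 8, called or not, 144 of 154 recomputed values moved by less than the spread between replicates. Among the 144 is TSTD1 with dCas9-KRAB, which changed sign from -0.13 to 0.35 without LTR5HS Sp replicate 1. The same contrasts and libraries chose the genes, so nothing is read from this stability. F11R was the 1 gene that dropped from the 5 called with dCas9-VPR, leaving 4, under the replicate block, without either LTR5HS Sp or either LTR5HS Sa library of that fusion, and with nontarget Sp alone as control. Equal replicate numbers are not stated to share a culture or day and there are only 2, so pairing by number was not established. Across genes, the difference between replicates correlated between arrays of a fusion with r from 0.195 to 0.467, positive for every pair of arrays. The replicate block gave 3130 calls between the control arrays with dCas9-VPR (734 without it), 410 with dCas9-KRAB (88) and 803 for the interaction (290).

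DESeq2 gave 716 recruitment calls with dCas9-KRAB (430 in edgeR), 224 between its control arrays and 594 for the interaction, and no filter gave 528 and 1008 for the last 2. The cause was not tested. Leaving out 1 library at a time gave 2299 to 4626 recruitment calls with dCas9-VPR and 214 to 441 with dCas9-KRAB, 188 to 750 and 50 to 225 between the control arrays, 89 to 676 for the interaction and 8198 to 8891 between the fusions. Calls among the 8 genes then numbered 4 to 5 and 2 to 2 for recruitment, 0 to 1 between the arrays of dCas9-VPR and 2 to 4 between the fusions. Calls among the neighbours numbered 3 to 6 with dCas9-VPR.

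TSTD1 with dCas9-KRAB recruitment ranged from -0.76 to 0.35 without 1 library. Values past no threshold changed sign for some genes when 1 library was left out. CFAP126 with dCas9-VPR recruitment then ranged from -0.47 to 0.060. Between the control arrays of dCas9-VPR, ITLN1 ranged from -0.57 to 0.82, USF1 from -0.021 to 0.25, ARHGAP30 from -1.22 to 0.31 and CD244 from -0.57 to 0.39. Between those of dCas9-KRAB, TSTD1 ranged from -1.07 to 0.33, USF1 from -0.028 to 0.098 and ARHGAP30 from -0.52 to 0.051. ARHGAP30 ranged from -0.10 to 0.41 between the fusions. In the interaction USF1 ranged from -0.081 to 0.17 and ARHGAP30 from -1.05 to 0.51, and ARHGAP30 was at 0.030 without a filter. USF1 between the fusions had adjusted p-values of 0.0168 to 0.120. Low counts limit ITLN1, CD244 and TSTD1 with dCas9-KRAB and LY9 with both fusions, where a moderate change was not detectable at this depth.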
